A study of Solanum lycopersicum with 24 samples.

Results

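The WRKY and MYB transcription factor genes *WRKYIId-4*, *WRKYIIe-1*, *WRKY3*, *THM27* and *THM6* (*Solanum lycopersicum*) were followed through leaves and roots of tomato plants carrying the *res* mutation and of wild type (WT) plants, with and without salt stress. The 5 members are 3 WRKY genes and 2 MYB genes, out of 968 genes on the array that carry a name other than a locus number. Each was found by a probe set whose only gene symbol was the member's name or a RefSeq synonym of it, and among several probe sets the brightest on average was to be taken. Each member turned out to have 1 probe set, so the 5 members are 5 of the 67795 probe sets measured. *WRKYIId-4* is listed in RefSeq also as SlWRKY26 and SlWRKY8, *WRKYIIe-1* as SlWRKY37, and *THM27* as MYB32. The genes were selected on earlier results of these arrays. The contrasts of *res* with WT in control plants, in which each member passes the thresholds in 1 organ, are therefore given as a description with no p-value. They are treated below as the contrasts on which the genes were chosen. The salt, interaction and organ contrasts reuse the same control arrays, so their p-values are not independent of the choice of genes. The genotype differences in salt are not computed from them. Their SEs and p-values are in part, since the spread is estimated from all arrays of the organ.

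WRKY factors are a plant family whose conserved domain binds the W-box, a short motif in the promoters of many defence and stress genes, and they act as activators or as repressors. The group names in *WRKYIId-4* and *WRKYIIe-1* place the proteins among the group II factors, and members of group IId bind calmodulin in *Arabidopsis*, which ties them to calcium signals. *WRKY3* of tomato has been linked to salt tolerance. MYB factors with repeats of the R2R3 kind control phenylpropanoid metabolism, cell shape and responses to stress, and MYB32 of *Arabidopsis* is a repressor within the phenylpropanoid pathway.

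The *res* plants and the WT plants shared the background cultivar, Moneymaker, and were grown in hydroponics to an age of 6 weeks. Salt stress was 200 mM NaCl for 5 days, with a lower dose on the first day. The 8 groups were salt-stressed *res* leaves, control *res* leaves, salt-stressed WT leaves, control WT leaves and the same 4 of roots, with 3 arrays each, and each array carried RNA pooled from 3 plants. Leaf tissue was leaflets of the first fully expanded leaf. By the sample labels, control tissue was harvested before salt was applied, so a difference between salt and control also holds 5 days of growth. The mutant was represented by a single line, *res* leaves are chlorotic in the absence of salt, and in bulk tissue fewer cells of a type and less RNA per cell cannot be told apart.

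Values are log2 intensities after robust multi-array average (RMA), so a difference of 1 is a 2-fold change, and they carry no detection calls or background level. The number of arrays limits the precision. Of the leaf marker genes measured, 7 of 7 were higher in every leaf array than in any root array, and of the root markers this held for 2 of 3, with *FRO1* overlapping. Replicates of one kind were not equally close in every group. In replicate 1 of control WT leaves 2494 probe sets lay more than 2-fold from the mean of the group's other arrays. In replicate 3 of salt-stressed WT roots 1399 did, whereas the other 22 arrays had between 58 and 1054. Of these, the other control WT leaves had 782 and 1054 and the other salt-stressed WT roots 518 and 368. Each of them was compared with a mean that holds the deviating array. The arrays of the remaining groups had between 58 and 239. Among the members, replicate 1 of control WT leaves deviated by -2.26 in *WRKY3* and by 1.65 in *THM27*, and by at most 0.41 in the other members. Replicate 3 of salt-stressed WT roots deviated by -0.74 in *THM27* and by -0.48 in *WRKY3*, and by at most 0.21 in the others.

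**Figure D1:**
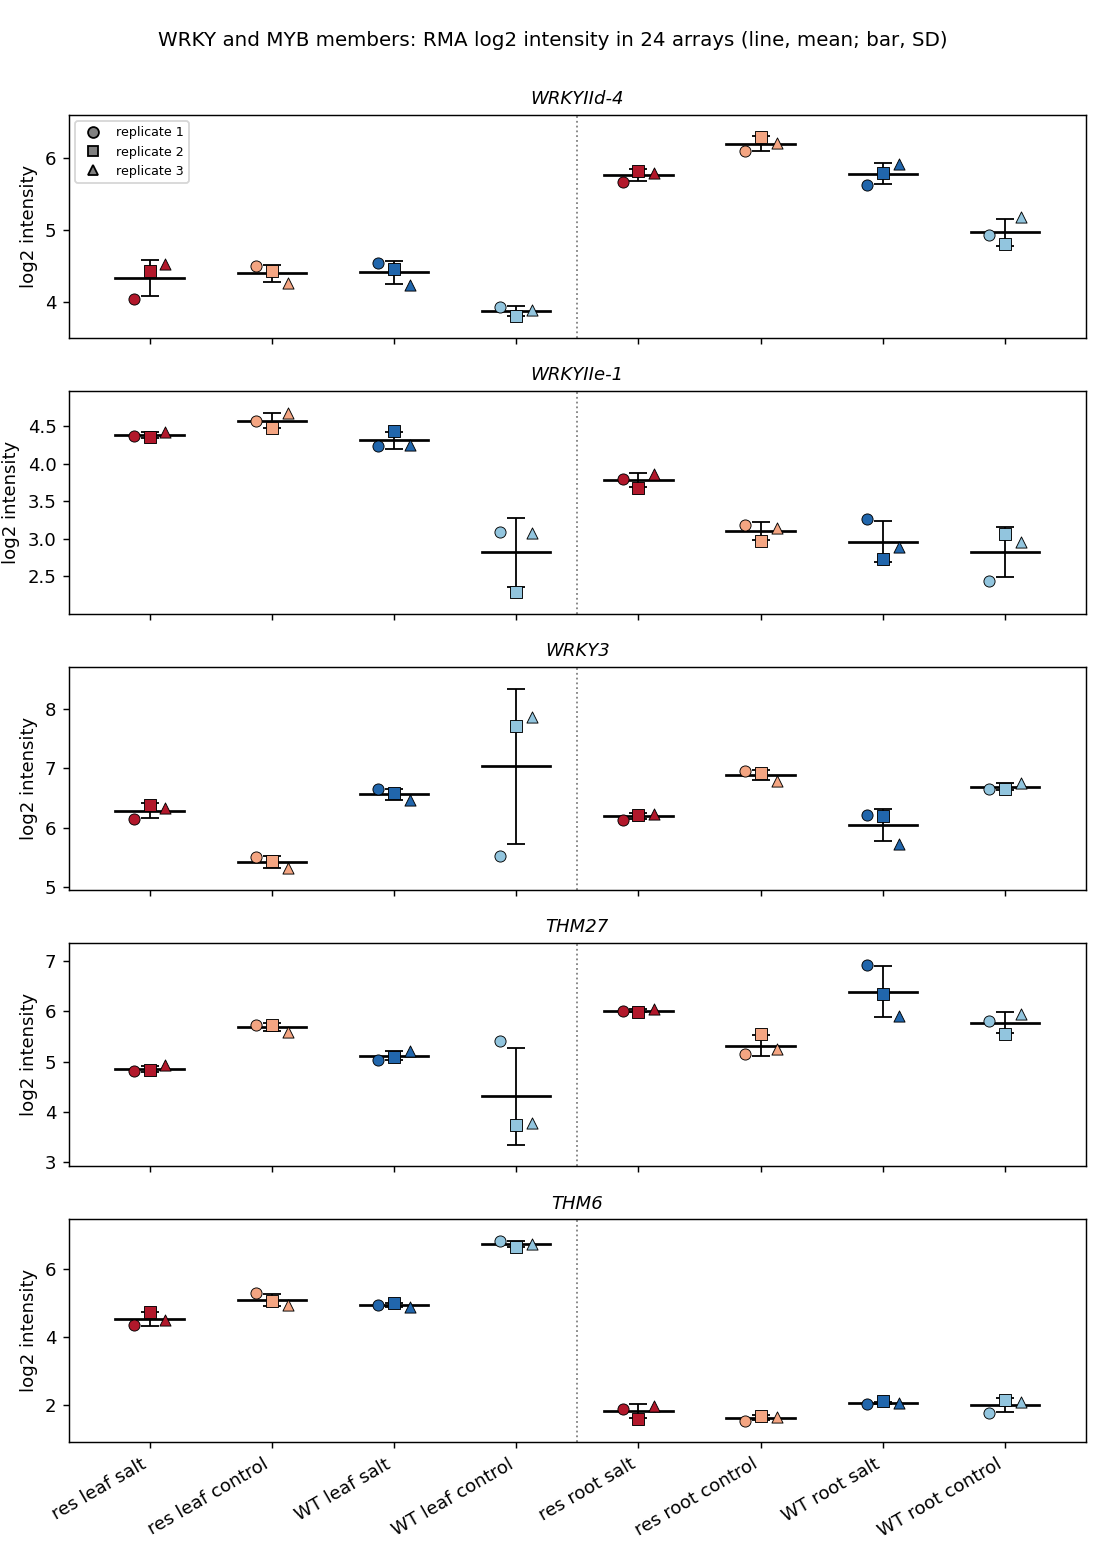
RMA log2 intensity of the 5 members in each of the 24 arrays, leaves left of the dotted line and roots right of it, with 1 point per array (its shape gives the replicate), a line for the group mean and a bar for the SD (n = 3). *THM6* lay between 4.35 and 6.82 in leaves and between 1.54 and 2.14 in roots, and in *WRKY3* and *THM27* the WT control leaves were split between replicate 1 and the other replicates.

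*WRKYIId-4* was higher in roots than in leaves, and its highest values were those of unstressed *res* roots. In salt it had 5.67, 5.82 and 5.8 in *res* roots, against 5.63, 5.8 and 5.92 in WT roots. Here the arrays of both genotypes overlapped, with a difference of -0.02 ± 0.11 (SE, 95% interval -0.27 to 0.22, limma adjusted p = 0.953). In control roots it had 6.1, 6.3 and 6.21 in *res*, against 4.93, 4.81 and 5.18 in WT. The groups were far from overlapping, and the difference of *res* from WT was 1.23 ± 0.11, or 2.35-fold. Against these control roots, on which the gene was chosen, the salt-stressed roots lay in opposite directions in the genotypes. In *res* roots the salt level was 0.44 ± 0.11 below control (adjusted p = 0.025), while in WT roots it was 0.82 ± 0.11 above control (adjusted p = 0.000413), both short of 2-fold.

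The difference between genotypes in *WRKYIId-4* was thus smaller under salt by 1.25 ± 0.16 in roots (interaction, adjusted p = 0.000234). This interaction holds the control difference for which the gene was chosen, so it is no independent evidence. In leaves too the control WT arrays were the lowest. Salt-stressed leaves had 4.05, 4.43 and 4.53 in *res*, against 4.55, 4.46 and 4.24 in WT. Control leaves had 4.51, 4.43 and 4.27 in *res*, against 3.94, 3.81 and 3.89 in WT, a difference of 0.52 ± 0.13 or 1.44-fold. Only the control WT leaves stayed clear of the other leaf groups, and salt-stressed WT leaves were 0.53 ± 0.13 above them (adjusted p = 0.0121), or 0.24 (adjusted p = 0.18) with the quantile normalization run again on leaf arrays alone. That normalization also turned the sign of the genotype difference in salt, which was -0.08 ± 0.13 as deposited (adjusted p = 0.725) and 0.18 after it.

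*WRKYIIe-1* stood out through the low values of unstressed WT leaves. Salt-stressed leaves had 4.37, 4.35 and 4.42 in *res*, against 4.24, 4.44 and 4.25 in WT, and these values overlapped, with a difference of 0.07 ± 0.18 (95% interval -0.32 to 0.46, adjusted p = 0.837), or 0.33 (adjusted p = 0.275) after normalization within leaves. In control leaves it had 4.57, 4.47 and 4.68 in *res*, against 3.09, 2.29 and 3.08 in WT. The *res* arrays were all higher, by 1.75 ± 0.18 or 3.37-fold. In *res* leaves salt and control differed by -0.2 ± 0.18 (adjusted p = 0.654). In WT leaves the gene rose under salt by 1.49 ± 0.18, or 2.81-fold (limma adjusted p = 5.75e-05), measured from the control WT arrays on which it was chosen. The interaction in leaves was -1.68 ± 0.25 (adjusted p = 0.00125) and again holds the control difference.

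In roots the pattern of *WRKYIIe-1* was another one. It had 3.8, 3.68 and 3.86 in salt-stressed *res* roots, against 3.27, 2.73 and 2.89 in salt-stressed WT roots. The *res* roots lay 0.82 ± 0.17 higher, or 1.76-fold (adjusted p = 0.00808), with no overlap but short of 2-fold. After normalization within roots the difference was 0.64 (adjusted p = 0.0597). In control roots it had 3.19, 2.97 and 3.15 in *res*, against 2.44, 3.06 and 2.96 in WT, which overlapped (0.28 ± 0.17, 95% interval -0.08 to 0.65). Salt-stressed *res* roots were 0.68 ± 0.17 above control *res* roots (adjusted p = 0.018), and for WT roots this difference was 0.15 ± 0.17 (adjusted p = 0.675). Whether the salt differences of the genotypes differ was not shown, since the root interaction of 0.53 ± 0.24 had an adjusted p of 0.292.

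*WRKY3*, the factor linked to salt tolerance, was lower in unstressed *res* leaves than in WT leaves, with a wide spread among the WT arrays. In salt the leaves had 6.15, 6.39 and 6.33 in *res*, against 6.65, 6.58 and 6.47 in WT, a difference of -0.27 ± 0.44 (95% interval -1.24 to 0.69, adjusted p = 0.728). The *res* arrays were below all WT arrays as deposited. After normalization within leaves they overlapped, with 6.27, 6.4 and 6.4 in *res*, against 6.46, 6.44 and 6.31 in WT, and the difference was -0.04 (adjusted p = 0.963). The leaf groups share 1 estimate of the spread in the fit, and the SD of the control WT leaves was 1.31. In control leaves it had 5.52, 5.45 and 5.32 in *res*, against 5.53, 7.71 and 7.86 in WT. Replicate 1 of WT lay at the level of *res*, and the other replicates were more than 2 log2 units above it. The mean difference was -1.6 ± 0.44, or 3.03-fold lower in *res*, and it was -2.35 without replicate 1 of WT. It passed the thresholds with all arrays but not without any 1 array of control *res* leaves.

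Salt and control of *WRKY3* differed in *res* leaves by 0.86 ± 0.44 (adjusted p = 0.323) and in WT leaves by -0.47 ± 0.44 (adjusted p = 0.516). Both carried the wide error of the leaf fit, although the salt and control arrays of *res* did not overlap. Without replicate 1 of control WT leaves the *res* difference of 0.86 had an adjusted p of 8.37e-05, and salt-stressed WT leaves were -1.22 from control (adjusted p = 5.95e-06). The interaction was then 2.08 (adjusted p = 1.86e-06), against 1.32 ± 0.63 (adjusted p = 0.308) with all arrays, and this contrast too holds the control difference. That array is the one that deviates in this gene, so leaving it out narrows the spread. The WT salt difference and the interaction were called on leaving out no other array. In roots the gene was lower in salt than in control in both genotypes. It had 6.14, 6.22 and 6.23 in salt-stressed *res* roots, against 6.95, 6.92 and 6.79 in control *res* roots, a difference of -0.69 ± 0.12 (adjusted p = 0.0019). It had 6.21, 6.2 and 5.73 in salt-stressed WT roots, against 6.66, 6.65 and 6.76 in control WT roots, a difference of -0.64 ± 0.12 (adjusted p = 0.0041). Salt arrays were below control arrays without exception, at less than 2-fold, and the interaction in roots was -0.05.

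*THM27* ran opposite to *WRKY3* in control leaves, where it was the higher in *res*. In salt it had 4.81, 4.83 and 4.93 in *res* leaves, against 5.04, 5.1 and 5.21 in WT leaves, with a difference of -0.26 ± 0.33 (95% interval -0.98 to 0.45, adjusted p = 0.64). In control leaves it had 5.73, 5.73 and 5.59 in *res*, against 5.41, 3.73 and 3.78 in WT, and again replicate 1 of WT lay near *res* while the other replicates did not. The mean difference was 1.38 ± 0.33, or 2.6-fold higher in *res*, and 1.93 without that array. As deposited, the *res* arrays thus lay below WT in salt and above WT in control. After normalization within leaves the salt arrays overlapped, with 4.89, 4.75 and 4.94 in *res*, against 4.73, 4.88 and 5.01 in WT, and the difference was -0.01 (adjusted p = 0.988). Salt-stressed leaves differed from control leaves by -0.83 ± 0.33 in *res* (adjusted p = 0.162) and by 0.81 ± 0.33 in WT (adjusted p = 0.107), or 0.53 in WT after that normalization (adjusted p = 0.327). The interaction of -1.64 ± 0.46 missed the threshold (adjusted p = 0.0574). Without replicate 1 of control WT leaves the *res* salt difference of -0.83 had an adjusted p of 4.08e-05 and the WT salt difference was 1.36 (adjusted p = 7.92e-07). The interaction, which holds the control difference, was then -2.19 (adjusted p = 4.3e-07). That array deviates in this gene too, so leaving it out narrows the spread. On leaving out any other array neither the WT salt difference nor the interaction was called.

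In roots the means of *THM27* were higher in salt than in control. It had 6, 5.99 and 6.05 in salt-stressed *res* roots, against 5.15, 5.55 and 5.24 in control *res* roots, a difference of 0.7 ± 0.21 (adjusted p = 0.0449). It had 6.92, 6.35 and 5.9 in salt-stressed WT roots, against 5.81, 5.54 and 5.95 in control WT roots, and there the arrays overlapped (0.63 ± 0.21, adjusted p = 0.084). Without replicate 3 of the salt-stressed WT roots that value was 0.87 (adjusted p = 0.0053). Between genotypes the root differences were -0.38 ± 0.21 in salt (adjusted p = 0.37) and -0.45 ± 0.21 in control. The salt value was -0.62 (adjusted p = 0.0341) without replicate 3 of salt-stressed WT roots and -0.11 (adjusted p = 0.837) without replicate 1.

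**Figure D2:**
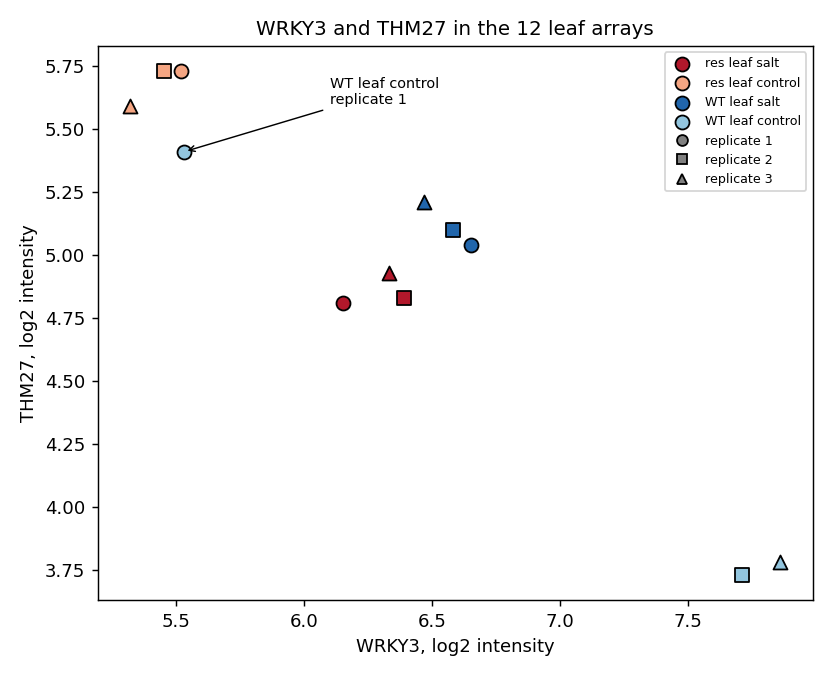
RMA log2 intensity of *THM27* (vertical axis) against *WRKY3* (horizontal axis) in the 12 leaf arrays, 1 point per array, with the group given by colour and the replicate by shape. Replicate 1 of control WT leaves, at 5.53 in *WRKY3* and 5.41 in *THM27*, sits beside the control *res* leaves, and the other control WT leaves lie at the opposite corner.

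Across the 12 leaf arrays Pearson's r of *WRKY3* with *THM27* was -0.94, across the 12 root arrays it was -0.63, and over the 24 arrays after subtracting the mean of each organ it was -0.85. These values describe arrays that share groups and normalization, and in leaves the points lie in clusters by group, with 2 control WT arrays far from the rest. The next strongest relation between members was that of *WRKYIIe-1* with *THM6*, with r = -0.77 over the 24 arrays, -0.89 in leaves and -0.15 in roots.

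*THM6* had its high values in leaves, and these were lower in *res* than in WT. In salt it had 4.35, 4.75 and 4.5 in *res* leaves, against 4.93, 4.99 and 4.87 in WT leaves. The difference of -0.39 ± 0.12 passed the adjusted p (0.0398) but was short of 2-fold, and it was -0.14 (adjusted p = 0.415) after quantile normalization within leaves. In control leaves it had 5.29, 5.07 and 4.94 in *res*, against 6.82, 6.66 and 6.74 in WT. The *res* arrays were lower by 1.64 ± 0.12, or 3.11-fold, with a narrow spread in both groups. In *res* leaves *THM6* was 0.57 ± 0.12 lower in salt than in control (adjusted p = 0.0086), short of 2-fold. In WT leaves it fell under salt by 1.81 ± 0.12, or 3.51-fold (limma adjusted p = 3.62e-07), measured from the control WT arrays on which it was chosen. The interaction in leaves was 1.24 ± 0.17 (adjusted p = 0.000691), which holds the control difference as well.

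In roots *THM6* had 1.89, 1.59 and 1.98 in salt-stressed *res* roots and 1.54, 1.67 and 1.66 in control *res* roots, against 2.04, 2.11 and 2.05 in salt-stressed WT roots and 1.77, 2.14 and 2.09 in control WT roots. The mean of control *res* roots stood at percentile 26.5 of the probe sets and those of the other root groups at 43.7 to 55.2, and with no background level in the data it cannot be said whether the gene was expressed there. The genotype differences were -0.25 ± 0.12 in salt (adjusted p = 0.296) and -0.38 ± 0.12 in control. The root differences between salt and control had adjusted p-values of 0.376 in *res* and 0.814 in WT.

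**Figure D3:**
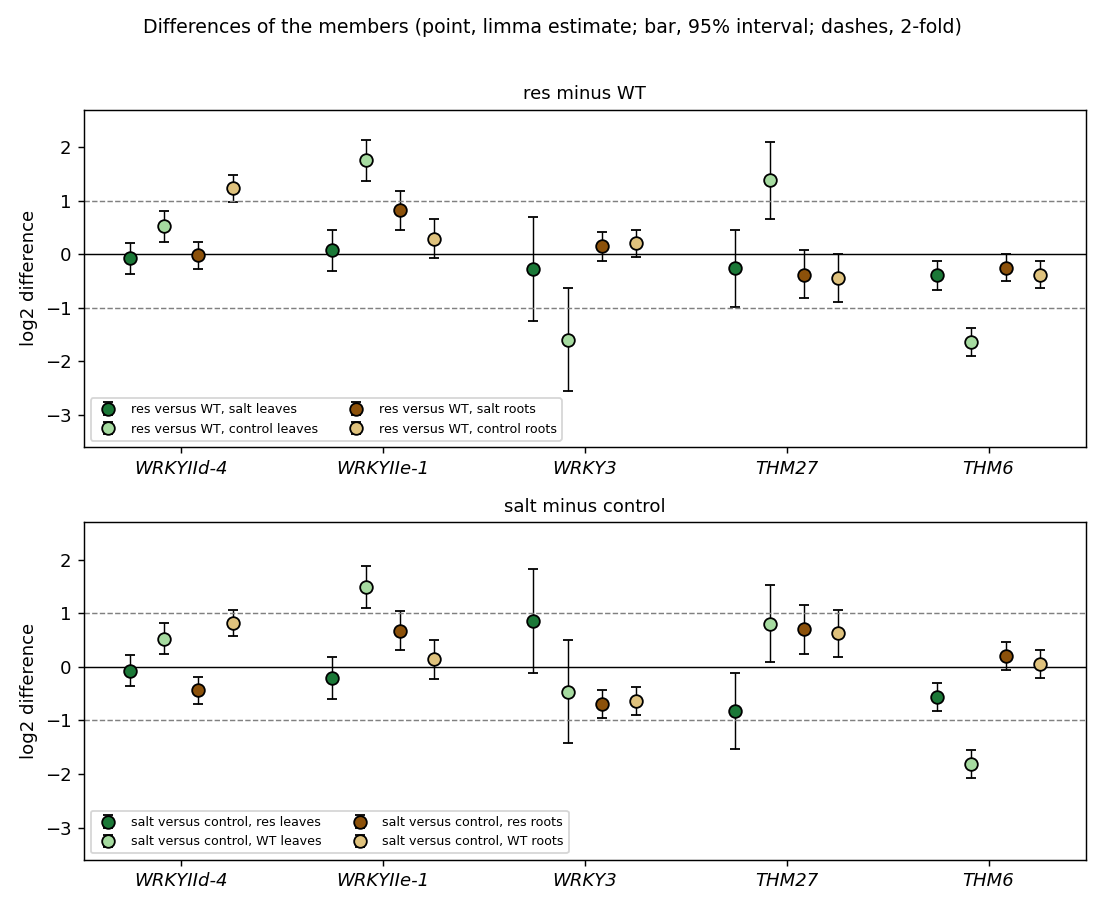
Log2 differences of the 5 members for *res* minus WT (upper panel, salt before control, leaves and roots) and for salt minus control (lower panel, *res* before WT), as the limma estimate with its 95% interval. Dashed lines mark 2-fold. In control the estimates of *WRKYIIe-1* and *THM27* were above the line and those of *WRKY3* and *THM6* below it in leaves, and *WRKYIId-4* was above it in roots. In salt no estimate of a genotype difference reached the lines. The intervals of *WRKYIIe-1* in roots (0.46 to 1.18) and of *WRKY3* in leaves (-1.24 to 0.69) crossed them in salt.

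The called members were counted at an adjusted p under 0.05 and at least 2-fold, beside the share of all probe sets called. In salt, the difference between *res* and WT was called for 0 of 5 members in leaves (4.37% of all probe sets) and 0 of 5 in roots (2.17%). With limma's unadjusted p under 0.05 it was 1 of 5 in each organ, *WRKYIIe-1* in roots and *THM6* in leaves, and the same model without moderated variances also called 0. No share of all probe sets was taken at the unadjusted p, so nothing is read from counts at that cut, here or below. In control, 4 of the 5 members passed in leaves, 2 higher and 2 lower in *res* (3.92% of all probe sets), and 1 in roots (5.43%), and nothing is read from these counts, for which the genes were chosen. Over the 20 genotype comparisons of a member, 5 were called, 3 higher and 2 lower in *res*, all of them in control. The genes were chosen for passing in control, so this split between control and salt is not read as a result. The median difference of the 5 members in control leaves was 0.52, the value of *WRKYIId-4*, against -0.12 for all probe sets. It depends on the choice of the genes, so nothing is read from it. The member median was 0.2 in control roots, -0.02 in salt-stressed roots and -0.26 in salt-stressed leaves. The leaf medians of all probe sets, -0.11 in salt and -0.12 in control, were 0 when the normalization was repeated within leaves. The called differences of the members in control leaves kept their direction there, with 2.02 in *WRKYIIe-1*, 1.48 in *THM27*, -1.39 in *WRKY3* and -1.45 in *THM6*.

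For salt against control, 0 of 5 members were called in *res* roots (3.11% of all probe sets), 0 in WT roots (2.72%), 0 in *res* leaves (3.4%) and 2 in WT leaves (6.98%), *WRKYIIe-1* higher and *THM6* lower. Where the count was 0, the model without moderation gave 0 too. Limma's unadjusted p was under 0.05 for 4 members in *res* roots, 3 in WT roots and 2 in *res* leaves, with no share of all probe sets beside these counts. Without the 2-fold requirement the adjusted p was passed by 4 members in *res* roots (11.4% of all probe sets), 2 in WT roots (9.11%), 1 in *res* leaves (10.6%) and 3 in WT leaves (20.9%). The 4 in *res* roots were *WRKYIIe-1* and *THM27* higher and *WRKYIId-4* and *WRKY3* lower in salt. The interaction of genotype and salt was called for 1 of 5 members in roots (3.69% of all probe sets) and for 2 in leaves (4.12%). Salt and genotype comparisons of an organ share arrays, so these counts are not independent of each other.

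The organs were compared in 1 fit over all 24 arrays. In salt, a difference between leaves and roots in the effect of *res* was called for 0 of 5 members (6.99% of all probe sets), with 1 at limma's unadjusted p under 0.05 and 0 without moderation, and in control for 4 of 5 (7.84%). In salt the widest was that of *WRKYIIe-1*, -0.75 ± 0.26 (adjusted p = 0.0518), which was -0.31 (adjusted p = 0.544) after normalization within each organ. In control the leaf difference minus the root difference was 1.83 ± 0.41 for *THM27* (adjusted p = 0.00311), 1.47 ± 0.26 for *WRKYIIe-1* (adjusted p = 0.000232), -1.26 ± 0.17 for *THM6* (adjusted p = 1.12e-05) and -1.8 ± 0.49 for *WRKY3* (adjusted p = 0.0134). For *WRKYIId-4* it was -0.71 ± 0.18 (adjusted p = 0.0069), short of 2-fold. These contrasts hold the control leaf differences that the members were chosen for.

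Most members differed between the organs themselves. In control *res* plants 4 of 5 members were called (17.7% of all probe sets) and in control WT plants 3 of 5 (15.2%). *THM6* was higher in leaves than in roots by 3.48 ± 0.12 in *res*, or 11.1-fold (adjusted p = 2.07e-16), and by 4.74 ± 0.12 in WT, or 26.7-fold (adjusted p = 8.84e-19). *WRKYIId-4* was lower in leaves by 1.79 ± 0.13 in *res* (adjusted p = 4.64e-11) and by 1.09 ± 0.13 in WT (adjusted p = 2.12e-07), where the difference was -0.98 and short of 2-fold without replicate 3 of control WT roots. *WRKYIIe-1* was 1.47 ± 0.18 higher in leaves than in roots of *res* (adjusted p = 4.99e-07), while the organs of WT were level at 0 ± 0.18 (adjusted p = 0.994). *WRKY3* was 1.45 ± 0.35 lower in leaves of *res* (adjusted p = 0.00168), and in WT the difference was 0.34 ± 0.35 (adjusted p = 0.505), or 1.09 without replicate 1 of control WT leaves (adjusted p = 2.21e-07). *THM27* was 1.46 ± 0.29 lower in leaves of WT (adjusted p = 0.000338), and in *res* the difference was 0.37 ± 0.29 (adjusted p = 0.361).

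Ordered by group mean, *WRKYIId-4* was highest in control *res* roots at 6.2 ± 0.1 (SD) and lowest in control WT leaves at 3.88 ± 0.07. The arrays of salt-stressed WT roots and salt-stressed *res* roots overlapped just below the top, control WT roots followed, and the other 3 leaf groups overlapped each other. *WRKYIIe-1* was highest in control *res* leaves at 4.58 ± 0.1, followed by the overlapping salt-stressed leaves of *res* and WT and then by salt-stressed *res* roots, and each of the last 4 groups overlapped its neighbour. *WRKY3* was lowest in control *res* leaves at 5.43 ± 0.1, and its highest mean was that of control WT leaves at 7.03 ± 1.31, whose arrays overlapped those of control *res* roots at 6.89 ± 0.09. *THM27* was highest in salt-stressed WT roots at 6.39 ± 0.51, overlapping salt-stressed *res* roots, and lowest in control WT leaves at 4.31 ± 0.95, overlapping salt-stressed *res* leaves. *THM6* was highest in control WT leaves at 6.74 ± 0.08, followed by control *res* leaves and salt-stressed WT leaves, which overlapped, and by salt-stressed *res* leaves at 4.53 ± 0.2, and the 4 root groups overlapped their neighbours at the low end. The range of the 8 group means was 5.11 for *THM6*, 2.32 for *WRKYIId-4*, 2.08 for *THM27*, 1.76 for *WRKYIIe-1* and 1.6 for *WRKY3*.

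Besides the members, 5 WRKY genes and 7 MYB genes were recognised by a symbol or synonym. The 8 WRKY genes in all included 2 that were called higher in *res* under salt in roots (list median 0.38), where 2.17% of all probe sets were called in either direction. In control roots 3 were higher (list median 0.65, 5.43% of all probe sets called), 1 of them *WRKYIId-4*, which was chosen on that contrast. In both treatments 0 were lower and the median of all probe sets was -0.01 in both treatments. In leaves the WRKY list had 1 gene higher and 0 lower in salt (4.37% of all probe sets called). In control leaves 1 was higher and 1 lower (3.92% of all probe sets called). These were the members *WRKYIIe-1* and *WRKY3*, which were chosen on that contrast. Of the 9 MYB genes in all, 0 were called between genotypes in salt in either organ, and in control 0 in roots and 1 higher and 1 lower in leaves, the 2 members. None of the other 7 MYB genes reached both thresholds in a comparison of genotypes. Some were dim, with group means of *Aft* at percentiles 3.1 to 16.9 of the probe sets and of *THM1* at 10.6 to 45.5. The counts do not speak for MYB genes without a recognised name. Short of 2-fold, limma's adjusted p was passed in salt-stressed roots by *THM16* (0.63 ± 0.16, adjusted p = 0.029) and *THM18* (0.56 ± 0.15, adjusted p = 0.0336), in control roots by *THM18* (0.52 ± 0.15, adjusted p = 0.0281) and in control leaves by *THM16* (-0.96 ± 0.25, adjusted p = 0.0173), names given after their values had been seen. In salt-stressed leaves *THM18* had an unadjusted limma p under 0.05 (adjusted p = 0.053), with means at percentile 27.4 in *res* and 51.3 in WT. *THM16* was dim in leaves too, with the mean of control *res* leaves at percentile 17.5. Its control leaf arrays had 1.73, 1.44 and 1.18 in *res*, against 1.78, 2.66 and 2.8 in WT, where replicate 1 lay near *res*.

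The root calls of the WRKY list apart from *WRKYIId-4* were *SlWRKY16*, also listed as SlWRKY30, and *SlWRKY23*, also listed as SlWRKY4. *SlWRKY16* averaged 6.39 ± 0.08 (SD) in salt-stressed *res* roots, against 3.39 ± 0.32 in salt-stressed WT roots, and it was 3 ± 0.14 (SE) higher, or 7.99-fold (adjusted p = 3.74e-08). In control roots *SlWRKY16* averaged 7.77 ± 0.01 in *res*, against 2.88 ± 0.15 in WT, a difference of 4.89 ± 0.14 or 29.7-fold (adjusted p = 1.37e-10). Like *WRKYIId-4*, this gene showed a smaller genotype difference in salt than in control roots, by 1.89 ± 0.2 (interaction, adjusted p = 3.36e-05).

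*SlWRKY23* averaged 7.67 ± 0.1 in salt-stressed *res* roots, against 6.47 ± 0.22 in salt-stressed WT roots, a difference of 1.2 ± 0.11 or 2.3-fold (adjusted p = 1.33e-05). In control roots it averaged 8.39 ± 0.02 in *res*, against 5.24 ± 0.02 in WT, a difference of 3.14 ± 0.11 or 8.83-fold (adjusted p = 4.99e-10). Its genotype difference in roots was also smaller in salt than in control (interaction -1.94 ± 0.15, limma adjusted p = 2.99e-06). *SlWRKY23* was also the called gene of the WRKY list in salt-stressed leaves, where it averaged 5.34 ± 0.08 in *res*, against 3.69 ± 0.17 in WT. The difference was 1.65 ± 0.12 or 3.13-fold (adjusted p = 1.62e-06), and the leaf interaction was 1.99 ± 0.17 (adjusted p = 1.31e-05).

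**Figure D4:**
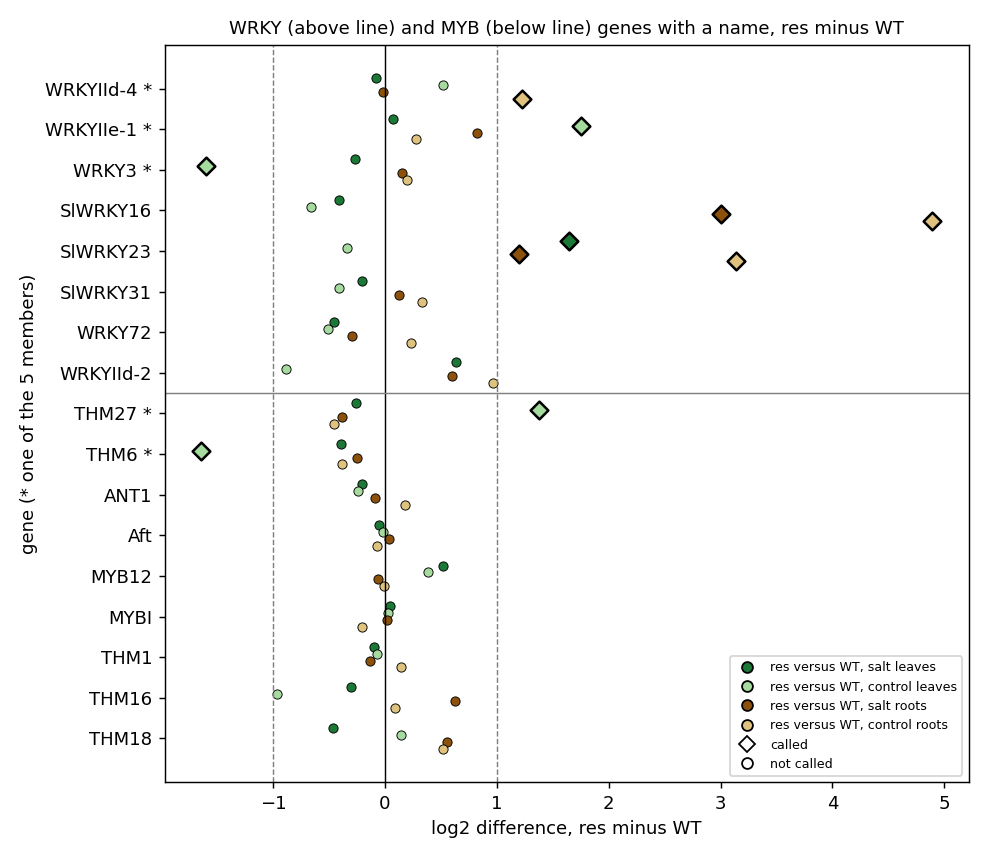
Log2 difference of *res* minus WT for the WRKY genes (above the line) and MYB genes (below the line), with members marked by a star. Each comparison has 1 point, a diamond where the difference was called and a circle where it was not. *SlWRKY16* and *SlWRKY23* lie farthest right in control roots, at 4.89 and 3.14.

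For salt against control, of the 5 WRKY and 7 MYB genes other than the members 2 were called in *res* roots (3.11% of all probe sets), 2 in WT roots (2.72%), 1 in *res* leaves (3.4%) and 1 in WT leaves (6.98%). In *res* roots 2 WRKY genes fell, *SlWRKY16* (-1.38, adjusted p = 1.84e-05) and *WRKY72* (-1.11, adjusted p = 0.000372), and in WT roots *SlWRKY23* rose (1.22, adjusted p = 7.37e-06) and the MYB gene *THM16* fell (-1.16, adjusted p = 0.000362). In *res* leaves *WRKYIId-2* rose (1.6, adjusted p = 0.0389). In WT leaves *SlWRKY23* fell (-2.17, adjusted p = 6.06e-08) beside the 2 called members. *WRKY72*, *THM16* and *WRKYIId-2* are named because of these counts, after their values had been seen.

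For each member the 3 most alike of 967 other named genes were listed by Pearson's r over the 24 arrays, after the mean of each organ had been subtracted. For *WRKYIId-4* these were *JA2* (0.84), a NAC-family factor, *ACS2* (0.84), an ACC synthase of the ethylene pathway, and *BL2* (0.83). The likeness of *ACS2* was in roots, at 0.96, and not in leaves, at 0.13. For *WRKYIIe-1* they were *mcpi* (0.88), a metallocarboxypeptidase inhibitor, *Td* (0.87), threonine deaminase, and *ARPI* (0.82). *WRKY3* was followed by *ail* (0.94), *AO* (0.91) and *DREB3* (0.88), a factor of the DREB family. *THM27* had lower values, with *CYC1* (0.79), *CAS1* (0.78) and *SSADH* (0.77), succinic semialdehyde dehydrogenase. For *THM6* they were *TFT6* (0.93) and *TFT* (0.89), both of the 14-3-3 protein family, and *fsm1* (0.89), a MYB-like gene of fruit, whose likeness was in leaves, at 0.92, and not in roots, at -0.03. The arrays of a group share genotype and treatment, so the 24 points are not independent.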

How the data were processed

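RNA of 24 samples (leaves and roots, *res* and WT, salt and control) was hybridised to Affymetrix Tomato Gene 1.1 ST arrays. The authors' deposited values are log2 intensities after RMA (background correction, quantile normalization and 1 value per probe set), with Partek named for annotation and testing. Their versions (not given in the sources used here) are left out. No scaling was added.

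Of the probe sets, 23194 carry 1 gene symbol, 170 carry several and 44431 none, and 23106 were matched to the RefSeq gene table, which served for names and synonyms. A probe set with no symbol has no name here but may have a gene.

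Limma 3.58.1 (R 4.3.3) was fitted to all 67795 probe sets, with the 12 arrays of an organ as 4 groups, and with all 24 arrays as 8 groups for contrasts between organs. P-values were adjusted (Benjamini-Hochberg) over the whole array, and a gene was called at under 0.05 with at least a 2-fold difference. Differences are given with SE and 95% intervals of the fit. The labels name biological replicates of 3 pooled plants. The fit was tested on simulated data.

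The members and lists were chosen with earlier results of these data known. Genes named are the members, up to 4 called genes of each family and genotype comparison whose groups do not overlap, and the 3 genes most alike to each member. Family lists rest on symbols and synonyms alone, since no descriptions or protein tables were at hand, and sequences were not analysed here. Within an organ the replicate numbers showed no pairing of the samples, so no block was used. Contrasts between organs treat leaf and root arrays as independent, and whether these came from the same plants was not tested. Alternatives were another set of arrays in the fit, no moderation of the variances, trend and robust variances, normalization within the organ, a filter on dim probe sets, 1 probe set per gene, a replicate block, no fold threshold and leaving out each array.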

Additional observations from a re-analysis of the deposited data

Results flagged for a closer look

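The contrasts between treatments and between organs that follow hold a control difference for which the genes were chosen, so their p-values describe the arrays and are no independent evidence. In 3 members the contrast between treatments in the effect of *res* passed the thresholds. In roots the difference of *res* from WT in *WRKYIId-4* was 1.25 ± 0.16 (SE) smaller in salt than in control (interaction -1.25, limma adjusted p = 0.000234). In leaves the interaction was -1.68 ± 0.25 for *WRKYIIe-1* (adjusted p = 0.00125) and 1.24 ± 0.17 for *THM6* (adjusted p = 0.000691).

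In 4 members the contrast between organs in the effect of *res* in control plants passed them. Leaf minus root, it was -1.8 ± 0.49 for *WRKY3* (adjusted p = 0.0134), 1.47 ± 0.26 for *WRKYIIe-1* (adjusted p = 0.000232), -1.26 ± 0.17 for *THM6* (adjusted p = 1.12e-05) and 1.83 ± 0.41 for *THM27* (adjusted p = 0.00311). Without replicate 1 of control WT leaves these were -2.55 for *WRKY3* (adjusted p = 1.68e-10) and 2.38 for *THM27* (adjusted p = 2.75e-07). The causes were not tested.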

How the results depend on the processing

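Of 1620 values recomputed under an alternative, 1591 stayed on their side of the thresholds, 10 lost and 19 gained a call, and 0 called values changed sign. In 21 values that were not called the sign turned, 18 of them on leaving out 1 array and 3 with normalization within the organ. Without the 2-fold requirement, 1 member instead of 0 differed between *res* and WT in salt-stressed roots and 1 in salt-stressed leaves. These counts between genotypes have no share of all probe sets beside them, and nothing is read from them. For salt against control, 4 members were counted in *res* roots, 2 in WT roots and 1 in *res* leaves, each instead of 0. With only the groups compared in the fit, 2 members instead of 4 were called in control leaves, where *WRKY3* and *THM27*, selected on that contrast, no longer passed. Nor did *WRKY3* without moderated variances, with trend and robust variances, without any 1 array of control *res* leaves or without replicate 2 or 3 of control WT leaves. The count of 2 members in control leaves has no share of all probe sets beside it, and nothing is read from it. The adjusted p by itself was not under 0.05 in 12 of 21 alternatives for *THM27* and 5 of 21 each for *WRKYIId-4* and *WRKYIIe-1* under salt in *res* roots, in 10 of 21 for *THM6* between genotypes in salt-stressed leaves, and in 1 of 21 for *WRKY3* under salt in either genotype's roots, all 24 arrays in 1 fit.

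Leaving out 1 array at a time, the members called were 2 to 4 for salt against control in WT leaves, 2 to 4 for the leaf interaction, 3 to 4 for control leaves and 2 to 4 for WT leaves against roots. The 4 in the first pair came without replicate 1 of control WT leaves, when *WRKY3* and *THM27* joined. The *THM27* interaction in leaves was also called with all 24 arrays in 1 fit (adjusted p = 0.0123), without dim probe sets (adjusted p = 0.0407) and with 1 probe set per gene (adjusted p = 0.0294). *WRKYIId-4* in WT leaves against roots was -0.98 without replicate 3 of control WT roots. The causes were not tested.

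With the replicate number as a block no call of a member changed, and 4 members were still called in control leaves. Of 36 pairs of same-numbered arrays within an organ 0 had a correlation of deviations over 0.1. Leaf and root arrays of the same number were not compared, so a pairing between organs was not tested. The values carry no background level, which limits what can be said of *THM6* in roots.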
